A study of Mus musculus with 2 samples.

Results

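Hypoxia-inducible factor (HIF) pathway genes were read in mouse bone marrow-derived macrophages (BMDMs) with and without IL-4, the cytokine that drives macrophages toward the M2-like state. The pathway was represented by 9 genes: the HIF subunits Hif1a, Epas1 and Arnt, the oxygen sensors Egln1, Egln2 and Egln3, the degradation factor Vhl, and the target genes Bnip3 and Adm. Members were chosen by gene name, and their probes were the gene probes whose RefSeq accession belongs to one of them. This gave 16 of the 39429 gene probes, for 9 of the 20656 named genes on the array. Both samples were BMDMs of male mice aged 8 weeks on the C57BL/6 background, with the genotype Crif1 f/f, so both conditions carried the floxed allele. One was left untreated and the other received IL-4 for 18 h. The IL-4 dose used for the arrays, the number of mice behind each RNA sample and the oxygen level of the cultures were not given in the sources used here. Total RNA was measured on single-colour Agilent arrays after labelling with Cy3, with 1 array per condition. Without replicates no p-value could be given for a difference between conditions, and precision is limited by the number of arrays.

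HIF is a transcription factor made of an oxygen-labile alpha subunit and the stable beta subunit ARNT. When oxygen is present, the prolyl hydroxylases encoded by the Egln genes mark the alpha subunit, VHL recognises the mark, and the subunit is ubiquitinated and destroyed. When oxygen is short the alpha subunit accumulates, pairs with ARNT and binds hypoxia response elements near its target genes. Much of this control acts on protein, which an RNA array does not measure. In macrophages HIF-1α is known for its part in glycolysis and inflammatory activation with Nos2 as a target, while HIF-2α, encoded by Epas1, has been tied to Arg1 and the response to Th2 cytokines.

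Promoter sequences of some members are shown because the pathway feeds back on its own genes. Egln1, Egln3, Bnip3 and Adm are HIF targets, and Hif1a is given as the subunit behind them. The Egln1 window is not printed. The 250 bases before each RefSeq start (GRCm38.p6) were searched on both strands for the core of the hypoxia response element, ACGTG or GCGTG, and for TTCNNNNGAA, the palindrome that STAT6, the transcription factor activated by IL-4, can bind. The E-box CACGTG holds ACGTG on both strands, so 1 E-box counts as 2 cores. RefSeq gave 9 windows for 8 of the members, with a pair of starts for Egln2 and no window for Epas1. Either core was found in 8 of the 9 windows, covering 7 genes, against 38.6% of the 32851 windows of the same length. Vhl was the gene without one. Both cores hold CG, and the GC content of the members' windows ran from 48% in Egln2 to 86% in Egln1. The windows were not matched for GC content, so these shares do not show enrichment. TTCNNNNGAA was in the Hif1a window alone among the members, against 5.85% of all windows. A match of letters is a description and not a binding site. In the sequences below, written 5′ to 3′ on the gene's strand, capitals mark the cores on either strand (CACGC is GCGTG read from the opposite strand) and, in Hif1a, the palindrome.
Adm, chr7:110627407-110627656, plus strand: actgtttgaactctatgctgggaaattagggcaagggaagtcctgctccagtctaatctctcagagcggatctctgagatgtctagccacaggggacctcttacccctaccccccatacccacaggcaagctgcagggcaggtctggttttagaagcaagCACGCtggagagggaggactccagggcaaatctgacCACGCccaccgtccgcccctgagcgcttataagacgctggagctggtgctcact
Bnip3, chr7:138909507-138909756, minus strand: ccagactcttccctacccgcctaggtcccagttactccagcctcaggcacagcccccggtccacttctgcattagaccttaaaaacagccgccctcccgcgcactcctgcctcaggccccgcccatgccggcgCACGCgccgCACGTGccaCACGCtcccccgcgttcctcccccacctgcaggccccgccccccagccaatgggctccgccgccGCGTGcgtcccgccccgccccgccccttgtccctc
Egln3, chr12:54203875-54204124, minus strand: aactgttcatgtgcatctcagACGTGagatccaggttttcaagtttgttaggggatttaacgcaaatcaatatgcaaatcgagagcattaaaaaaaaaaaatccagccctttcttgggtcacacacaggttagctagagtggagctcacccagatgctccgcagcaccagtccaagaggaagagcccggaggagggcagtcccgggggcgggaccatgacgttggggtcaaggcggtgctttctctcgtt
Hif1a, chr12:73907617-73907866, plus strand: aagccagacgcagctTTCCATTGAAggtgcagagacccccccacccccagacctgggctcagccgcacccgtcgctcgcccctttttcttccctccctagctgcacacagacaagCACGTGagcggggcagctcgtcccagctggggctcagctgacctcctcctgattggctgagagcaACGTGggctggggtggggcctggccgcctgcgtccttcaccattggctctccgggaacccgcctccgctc

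In Adm the 2 GCGTG cores lay on the opposite strand, from 90 to 86 and from 54 to 50 bases before the start. Bnip3 held 3 GCGTG cores and an E-box. Egln3 had a lone ACGTG core from 229 to 225 bases before its start. Egln1, not printed above, had an ACGTG core from 68 to 64 and a GCGTG core from 126 to 122 bases before its start. The Hif1a window held an E-box from 135 to 130, another ACGTG core from 70 to 66, and the palindrome from 235 to 226 bases before the start.

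RNA of all 9 members was detected in both conditions. Each of the 16 probes was printed in 1 spot, every one of these spots was well above background on both arrays by the scanner software's own flag, and 0 were flagged as outliers or saturated. Signals are given first as the background-subtracted intensity of the spot and then as scaled log2 signal, which is log2 intensity minus the 75th percentile of that array (9.84 for untreated and 9.94 for IL-4). Differences are IL-4 minus untreated on this log2 scale. The error beside a difference is the SD between spots, taken as the median over probes printed in 10 spots with a signal within 1 log2 unit of the probe. It covers the spots of an array and not the spread between cultures. On the whole arrays 59.8% and 57.4% of the 43020 gene spots were well above background. In such bulk RNA, fewer cells of a type and less RNA per cell cannot be told apart.

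Read from the brightest probe of each gene, 0 of the 9 members reached a 2-fold difference upward after IL-4, and 0 reached one downward. Among the 19743 genes with a probe well above background on either array, the share past this cutoff was 2.86% on the higher side and 4.47% on the lower side. At 1.5-fold, 1 member was higher, which was Adm, and 0 were lower, against 6.11% higher and 11.0% lower of the same genes. Differences were positive for 7 members and negative for Hif1a and Egln1. Their median was 0.18, against -0.01 over the 17242 genes measured on both arrays. When each gene was read from the median over its probes instead, the members' median was 0.02, with 6 positive and 3 negative differences, against -0.02 over all genes. With shares this low among all genes, counts of 0 or 1 among 9 genes do not set the members apart.

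**Figure D1:**
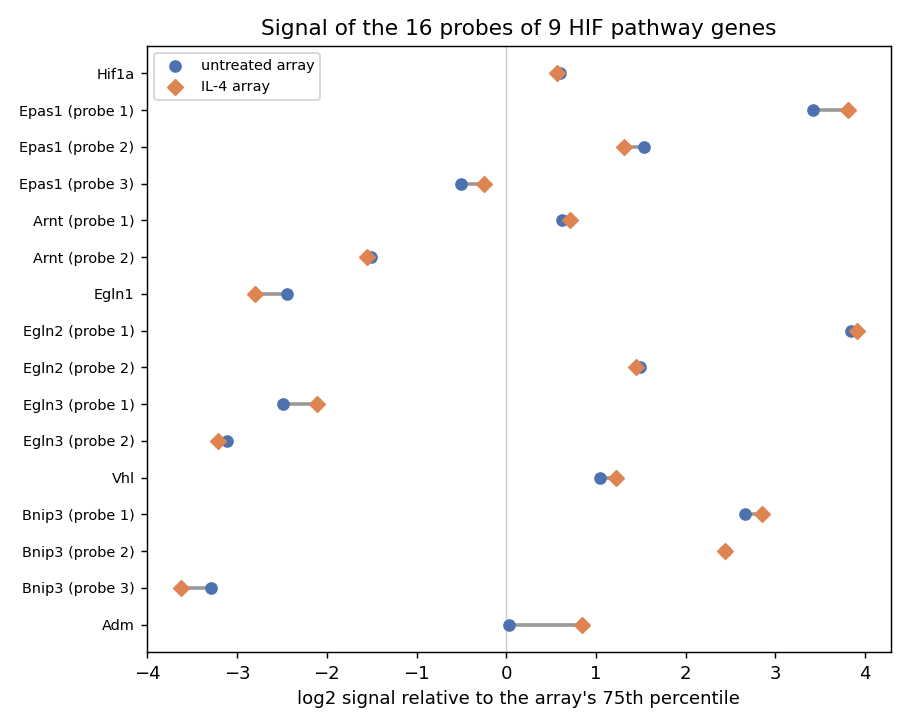
Scaled log2 signal (log2 intensity minus the array's 75th percentile) of every probe of the 9 HIF pathway genes on the untreated and the IL-4 array, 1 point per array and probe. A line joins the 2 arrays at each probe, and its length is the size of the difference. The Adm line is the longest, from 0.03 to 0.85.

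Hif1a, which encodes the alpha subunit of HIF-1, had an intensity of 1387 without IL-4 and 1447 with it. Its scaled log2 signals were 0.60 and 0.56, a difference of -0.04 (SD between spots 0.057). The difference was smaller than the spread between spots, and its sign depended on the scaling, with a range from -0.09 to 0.29.

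Epas1, which encodes HIF-2α, was read by 3 probes. The brightest went from an intensity of 9817 to 13779, or from 3.42 to 3.81 in scaled log2 signal, a difference of 0.39 (SD between spots 0.046) and 1.31-fold higher after IL-4. The dimmest went the same way, from 645 to 823, a difference of 0.25 (SD between spots 0.061). The remaining probe went from 2648 to 2444, a difference of -0.22 (SD between spots 0.052) and 1.16-fold lower. All 3 differences were larger than the spread between spots, and they did not share a direction. For the brightest and the dimmest probe the difference was positive under each of the 7 scalings, from 0.32 to 0.72 and from 0.20 to 0.58, while the remaining probe ranged from -0.27 to 0.11.

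Arnt encodes the beta subunit that both alpha subunits need. Its brighter probe had intensities of 1403 and 1606, a log2 difference of 0.09 (SD between spots 0.058). The dimmer one had 322 and 334, a difference of -0.05 (SD between spots 0.078). Neither probe differed by more than 1.07-fold. None of the subunits reached a 1.5-fold difference, and the largest was that of the brightest Epas1 probe.

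Of the prolyl hydroxylases, Egln1 and Egln3 differed in opposite directions. Egln1 encodes PHD2, the main oxygen sensor in most cells. It had an intensity of 168.5 in untreated and 141.1 in IL-4-treated BMDMs, and scaled log2 signals of -2.44 and -2.80. This is a difference of -0.36 (SD between spots 0.112), or 1.28-fold lower, and it stayed negative under each scaling, from -0.41 to -0.03. Egln3 encodes PHD3 and is, like Egln1, a HIF target. Its brighter probe went from 163 to 226, or from -2.49 to -2.11 in scaled log2 signal, a difference of 0.38 (SD between spots 0.103) and 1.30-fold higher. That difference stayed positive under each scaling, from 0.32 to 0.70, and was 0.21 with the normexp background correction. The dimmer Egln3 probe stood at 105.7 and 105.8, a difference of -0.10 (SD between spots 0.158), and so did not share the difference of the brighter one. These probes were among the dimmest of the members, where the spots of a probe spread most.

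Egln2, which encodes PHD1, was read by a pair of brighter probes. Intensities were 13150 and 14695 at the brighter, a difference of 0.06 (SD between spots 0.045), and 2577 and 2671 at the dimmer, a difference of -0.05 (SD between spots 0.053). Vhl, the substrate recognition part of the ubiquitin ligase that destroys hydroxylated HIF alpha, went from 1885 to 2289, a difference of 0.18 (SD between spots 0.055) and 1.13-fold higher. Its difference was positive under each scaling, from 0.13 to 0.51.

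Bnip3 encodes a mitochondrial protein that serves as a mitophagy receptor and is a HIF target. Its brightest probe went from 5806 to 7047, a difference of 0.18 (SD between spots 0.049) and 1.13-fold higher. The next probe in brightness stood at 4966 and 5299, a difference of -0.01 (SD between spots 0.050). The dimmest went from 93.5 to 79.4, a difference of -0.34 (SD between spots 0.191) and 1.26-fold lower. The 3 Bnip3 probes thus lay on both sides of 0, with 0.52 between the highest and the lowest, and none reached a 1.5-fold difference.

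Adm, which encodes the vasodilator peptide adrenomedullin, had the largest difference of the 9 members. Its intensity was 934 in untreated and 1764 in IL-4-treated BMDMs, and its scaled log2 signals were 0.03 and 0.85. This is a difference of 0.82 (SD between spots 0.058, over 83 probes printed in 10 spots), or 1.76-fold higher. The error that the scanner software gave for the pair of spots was 0.20 on the log2 scale. The difference was larger than both errors. Adm passed 2-fold under median scaling, at 1.03, and under scaling on the spike-in control probes, at 1.14. It stayed under 2-fold in the other scalings, the lowest being 0.76, and with the normexp background correction, at 0.68. Adm had 1 probe on the array, so no further probe bears on it.

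**Figure D2:**
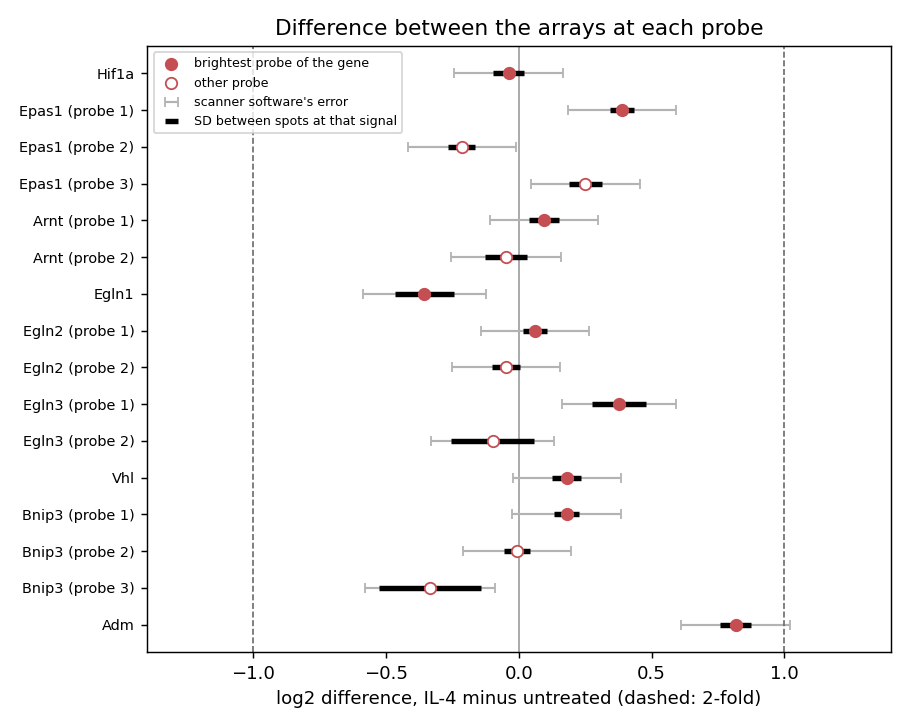
Log2 difference, IL-4 minus untreated, of each of the 16 probes, with bars of 1 SD between spots on either side. The Adm probe at 0.82 stands clear of the rest, which lie between -0.36 and 0.39, and probes of the same gene lie on both sides of 0.

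All 5 members with more than 1 probe (Epas1, Arnt, Egln2, Egln3 and Bnip3) had probes on both sides of 0. Among all 3292 named genes with several probes well above background on both arrays, 29.2% had. The members' count depended on the scaling. It was 3 with quantile normalization and with cyclic loess, 2 (Bnip3 and Epas1) with median scaling and with no scaling, and 1 (Bnip3) with spike-in scaling, where the share of all such genes was 16.7%. The median spread between the highest and the lowest probe was 0.48 for these members, which is that of the dim Egln3 pair. It was 0.14 for all such genes. The probes of a gene can read different transcript ends or isoforms, and their sequences were not used here, so which probe stands for the whole transcript was not tested. Of the 16 probes, 11 differed by more than 1 SD between spots, 8 by more than 2 SD, and 7 by more than the error given by the software. The share of all probes past these errors was not counted, so these counts do not set the members apart.

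Scalings that subtract 1 value per array moved all members together. Quantile normalization and cyclic loess did not. With quantile normalization the brightest Epas1 probe moved from 0.39 to 0.32 and the brighter Egln3 probe from 0.38 to 0.45. The median of all genes was 0.20 with median scaling and 0.31 with spike-in scaling, against -0.01 in the values given above, and the members' median moved to 0.39 and 0.51. The split of all genes at 2-fold moved too, from 564 higher and 883 lower to 827 and 564 with median scaling, 803 and 533 with quantile normalization, and 1024 and 451 with spike-in scaling. Set against the median of all genes in the same setting, Adm lay 0.81 to 0.83 above it under each of the 7 scalings and 0.73 above it with normexp. The brightest Epas1 probe lay 0.33 to 0.40 above it and the brighter Egln3 probe 0.39 to 0.48 above it, or 0.25 with normexp. Egln1 lay below it in each scaling, from -0.34 to -0.24. Hif1a lay close to it, from -0.06 to -0.02. By this measure 11 of the 16 probes kept their side of the median in each scaling and with normexp, 7 above it and 4 below. Scalings that subtract 1 value per array leave the gap to this median unchanged by construction. Only quantile normalization, cyclic loess and normexp could therefore move a probe against the median.

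**Figure D3:**
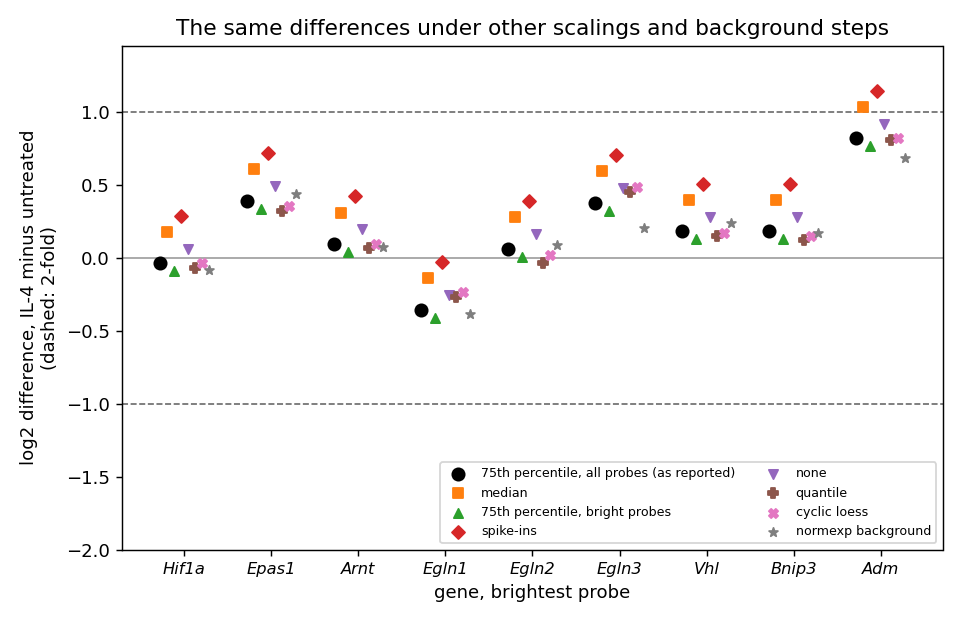
Log2 difference, IL-4 minus untreated, of the brightest probe of each member under the scalings and background correction compared. Adm runs from 0.68 to 1.14 and is the highest member in each, and Egln1 is negative in each.

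**Figure D4:**
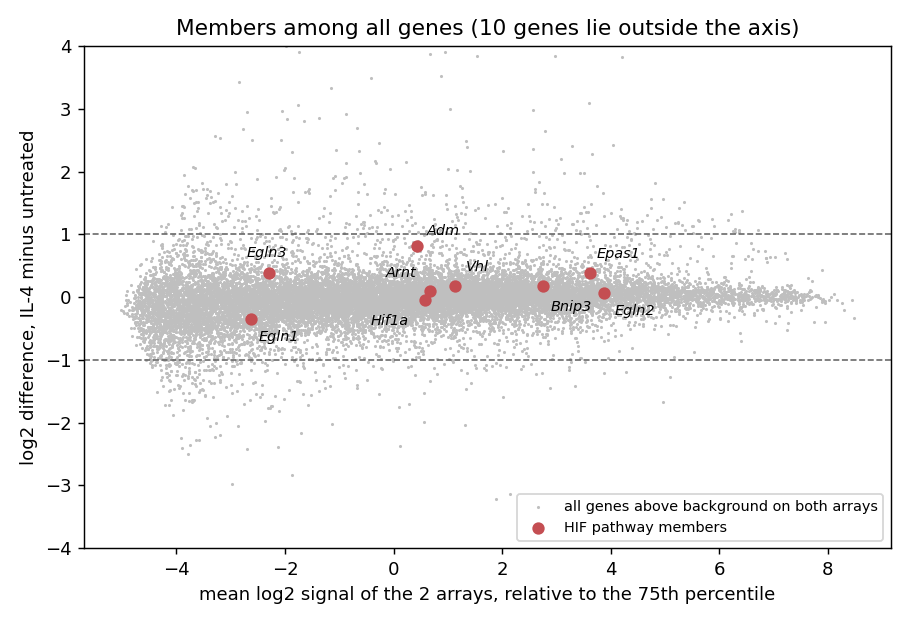
Log2 difference, IL-4 minus untreated, against mean scaled log2 signal for all genes measured on both arrays (grey), with the 9 members (brightest probe) marked and lines at 2-fold. All members lie between the lines, and 10 genes fall outside the axis.

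Of 7 other subunits and cofactors, 5 were above background on either array, and at 1.5-fold 0 were higher and 1 was lower, which was Cited4. Hif3a, a further alpha subunit, and Arnt2, a further beta subunit, were above background on neither array. Cited2, which competes with HIF-1α for its coactivators, had a difference of 0.31. The coactivators Crebbp and Ep300 had -0.19 and -0.15. Cited4, a relative of Cited2, was above background on the untreated array only, with intensities of 45.6 and 31.3. Its difference was -0.64 (SD between spots 0.297), or 1.56-fold lower, and -0.44 with normexp. Over the scalings it ran from -0.70 to -0.24. Hif1an, the asparagine hydroxylase that blocks coactivator binding, had -0.11. Of 14 degradation and stability factors, 0 reached 1.5-fold in either direction. Their differences ran from -0.05 to 0.15 with a median of 0.07. The largest were 0.15 for Siah2, a ubiquitin ligase that acts on prolyl hydroxylases, and 0.13 for Cops5, a signalosome subunit. The lowest were -0.05 for P4htm and -0.04 for Os9. The partners of VHL in its ligase had 0.05 for Elob, -0.03 for Eloc, 0.06 for Cul2 and 0.12 for Rbx1.

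Known HIF target genes outside the members did not share a direction. Of 45 such genes 43 were above background, 21 with a positive and 22 with a negative difference, and their median was -0.02. At 2-fold 2 were higher and 1 was lower, and 35 lay within 1.5-fold. Of all genes measured on both arrays, 8175 had a positive and 9067 a negative difference. Of the 19743 above background on either, 16333 lay within 1.5-fold. These counts do not set the targets apart from all genes. The shares of all genes, 2.86% higher and 4.47% lower at 2-fold and 6.11% and 11.0% at 1.5-fold, also stand beside the other lists. Bhlhe40, a transcriptional repressor, went from an intensity of 866 to 2850, a difference of 1.62 (SD between spots 0.059) and 3.07-fold higher. Tfrc, the transferrin receptor, went from 1071 to 2436, a difference of 1.09 and 2.12-fold higher. Bhlhe41, the relative of Bhlhe40, went from 207 to 78.6, a difference of -1.50 (SD between spots 0.123) and 2.82-fold lower, or -0.98 with normexp. The related pair Bhlhe40 and Bhlhe41 thus lay on opposite sides. Among the other targets, the chemokine receptor Cxcr4 had -0.82, the heme oxygenase Hmox1 -0.65 and the angiogenic factor Vegfa -0.45.

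Of the 20 target genes of glucose uptake and glycolysis, 0 reached 2-fold, and at 1.5-fold 2 were higher and 1 lower. Pfkfb4, one of the enzymes that set the level of fructose 2,6-bisphosphate, went from 5398 to 10952, a difference of 0.92 and 1.89-fold higher, and it passed 2-fold under median scaling, spike-in scaling and no scaling, at up to 1.25 on the log2 scale. Its relative Pfkfb3 had -0.76, or 1.69-fold lower. Pfkp, a phosphofructokinase, had 0.61. The glucose transporters Slc2a1 and Slc2a3 had 0.53 and -0.39, and the list's median was -0.03.

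Around Adm, the 7 genes of the adrenomedullin system were above background on at least 1 array, and 0 reached 1.5-fold. Calcrl, the receptor that adrenomedullin binds, was above background on the IL-4 array only, with intensities of 22.6 and 30.8. The lowest intensities well above background on these arrays were 29.2 and 27.9. The Calcrl difference of 0.35 was smaller than the SD between spots of 0.389, and was -0.20 with normexp. Of the receptor partners that give Calcrl its ligand preference, Ramp3 had 0.50, Ramp1 0.06 and Ramp2 -0.24. Adm2, the related peptide, had -0.47. Pam, the enzyme that amidates adrenomedullin, had -0.17, and the scavenger receptor Ackr3 had 0.08. The difference of the ligand was larger than that of any of the 6 system genes measured on both arrays.

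Around Bnip3, 0 of the 13 mitophagy genes reached 2-fold and their median was -0.05. Bnip3l, the closest relative of Bnip3, had -0.39 at its brightest probe, and its 4 probes ran from -0.39 to -0.22, all negative. Map1lc3b, to which both receptors bind, had -0.31, and Pink1 had -0.27. Bcl2, which can bind BNIP3, had 0.70, or 1.62-fold higher.

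The macrophage genes tied to HIF in earlier work did not share a direction. Arg1, the arginase that HIF-2α has been linked to, went from an intensity of 84.9 to 19688, a difference of 7.76 and 216-fold higher, or 6.79 on the log2 scale with normexp. The authors reported that the induction of Arg1 by IL-4 was lost in BMDMs without STAT6. The part of HIF-2α in the Arg1 difference was not tested. Nos2, the nitric oxide synthase that HIF-1α has been linked to, stood at 79.3 and 81.6, a difference of -0.06. Il6 went from 65.6 to 150.3 in intensity, 2.14-fold higher, or a log2 difference of 0.45 with normexp. Il1b and Cxcl12 had -0.29 and -0.20. The subunits themselves differed far less, with -0.04 for Hif1a and 0.39 for the brightest Epas1 probe.

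**Figure D5:**
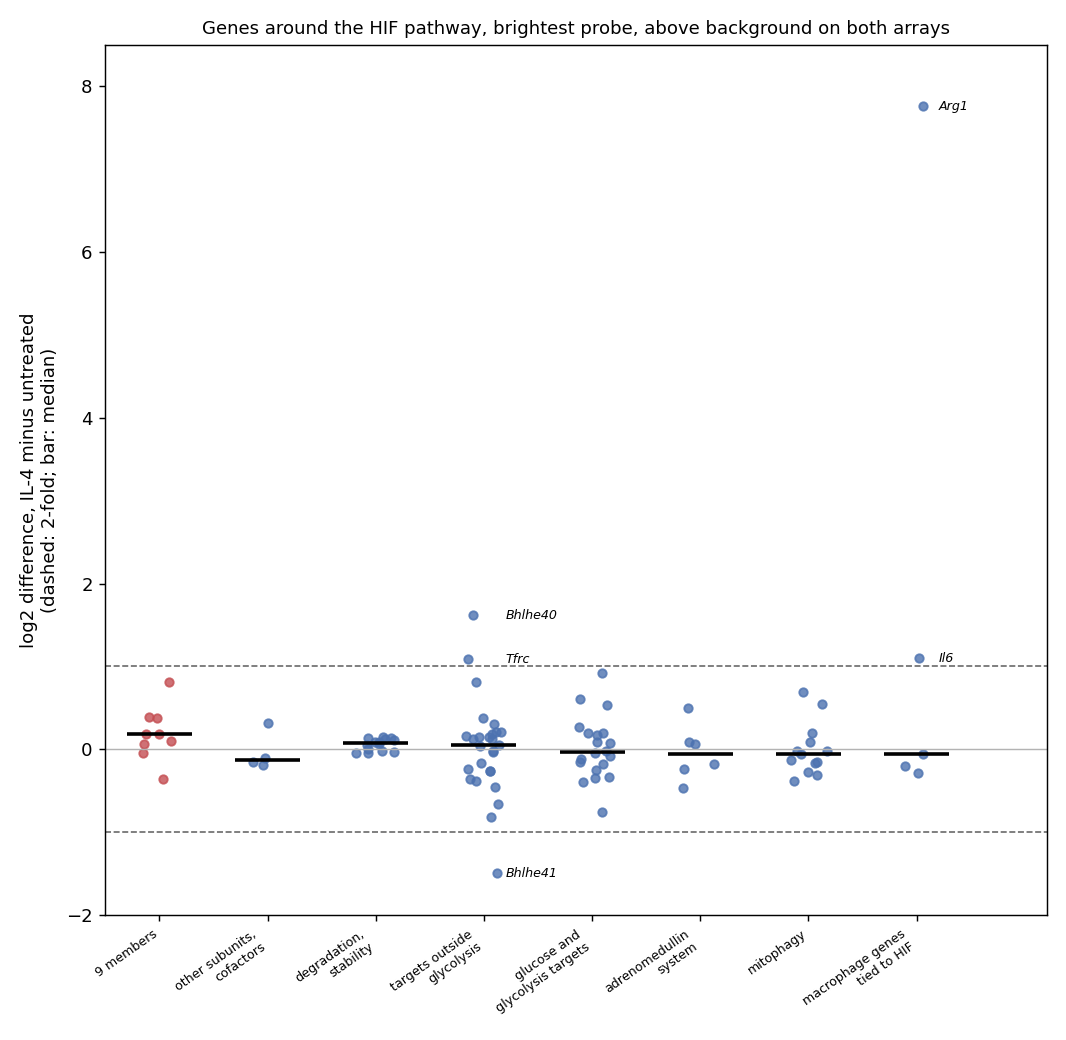
Log2 difference, IL-4 minus untreated, of each gene of the HIF pathway and of the lists around it, 1 point per gene (brightest probe) and a bar at the list's median. The targets outside glycolysis include the members Egln1, Egln3, Bnip3 and Adm. Arg1 lies far above the rest at 7.76, and the medians lie between -0.13 and 0.18.

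Markers of other cell types were read because some members, Epas1 and Adm among them, are also expressed by endothelial and stromal cells. Of the 8 macrophage markers 7 were found by accession and all 7 were above background on both arrays. Their summed scaled signal was 324 untreated and 279 after IL-4, with Cd14 at -1.42, Fcgr1 at -1.23 and Mertk at -1.14, while Csf1r and Adgre1 had 0.09 and 0.17. All 5 fibroblast or stromal markers were above background on both arrays, with a summed scaled signal of 331 and 301. Col1a1 and Col1a2, with -0.34 and -0.09, carried most of that sum, and Dcn had -0.14. Lum and Pdgfra had 0.52 and 0.51, and Lum had 0.25 with normexp. Of 6 endothelial markers 5 were above background, Tek was not, and the 5 had positive differences at their brightest probes, from 0.02 for Cdh5 to 1.05 for Cldn5. A further Kdr probe had -0.54. Their sum was 4.54 and 5.53, a log2 ratio of 0.29. The endothelial sum was higher after IL-4, as Epas1 at its brightest probe and Adm were, while the stromal sum was lower. Stromal genes were split, with Lum and Pdgfra higher and Col1a1, Col1a2 and Dcn lower. The part of such cells in the differences of Epas1 and Adm was not tested. The 5 neutrophil markers found had a sum of 6.17 and 4.42. Of the lymphocyte markers, Cd3d, Cd79a and Ms4a1 were above background on neither array, while Nkg7, at intensities of 1382 and 1206, and Cd3e, at 343 and 296, were above it on both. Of the erythroid markers, Alas2 and Hba-a1 were above background on neither array and Epor, at 98.0 and 109.4, was above it on both.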

How the data were processed

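The authors scanned 1 Cy3 array per condition with Feature Extraction 10.10.1.1 (array design on mm9) and deposited, per spot, a background-subtracted intensity, together with a table of processed log2 values whose settings were not given in the sources used here. Over the 16 member probes, differences from that table matched those from the scanner intensity within 0.01. Control spots and outlier spots were left out, the spots of each probe were averaged on the log2 scale, and each array was scaled by subtracting its 75th percentile. Probes were named through RefSeq accessions (GRCm38.p6), 27234 of 39429 being matched. Probes above background on 1 array only were counted by their bound, and a gene was read from its brightest probe. The members and gene lists were chosen with earlier results of these data known. Named genes are all members, and of each list the genes past 2-fold, those with the largest differences and the partners of members, apart from items that are not reported here. With 1 array per condition no test was run. Alternatives were other scalings, normexp (offset 50, on the median pixel intensity), outlier spots kept, the authors' log2 table, other filters, a 1.5-fold cutoff and the median over probes. Counting was tested on simulated data. R 4.3.3, limma 3.58.1, Python 3.11.15, numpy 2.4.6, pandas 2.3.3 and matplotlib 3.10.9 were used.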

Additional observations from a re-analysis of the deposited data

How the results depend on the processing

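No paired analysis was possible because the conditions share no replicate numbers beyond their lone arrays. The count of members at least 2-fold higher was 0, and 1 (Adm) with median scaling, with spike-in scaling and with a 1.5-fold cutoff. No member was at least 2-fold lower under any alternative run. Of 144 probe values under 9 alternatives, 83 moved by less than the SD between spots and 61 by more. The sign changed under at least 1 alternative for 7 probes (Hif1a, both of Egln2, and 1 each of Epas1, Arnt, Egln3 and Bnip3) and held for 9. Other HIF targets at least 2-fold higher numbered 2, 3 with median, spike-in and no scaling, and 4 with the 1.5-fold cutoff. Those lower numbered 1, and 4 with that cutoff and 0 with normexp. Of all genes, 564 were higher and 883 lower. With the 1.5-fold cutoff these were 1206 and 2164, with no filter 1389 and 4075, with only probes above background on both arrays 363 and 270, with normexp 295 and 266, with spike-in scaling 1024 and 451, and with the authors' values 848 and 1645. Those lower were 564 with median scaling and 533 with quantile normalization. The median gap between the differences from the authors' values and those from the scanner was 0.0006. Bounds of probes above background on 1 array only were recomputed on the authors' values. The part of these bounds, and the cause of the other shifts, were not tested. Dim probes, such as those of Egln1 and Egln3, carry the largest spread between spots.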
